A study of Mus musculus with 16 samples.

Results

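Fibroblasts of the leptomeninges and of the sheaths around blood vessels were picked out of single-nucleus RNA-seq libraries of mouse hippocampus by their RNA. A barcode was kept with 200 to 4000 genes and at most 5% mitochondrial UMIs (unique molecular identifiers, 1 for each captured RNA molecule). It counted as a fibroblast nucleus where at least 3 of the 6 genes Col1a2, Col3a1, Dcn, Slc6a20a, Ranbp3l and Slc47a1 were detected, and at most 1 of the 5 genes Mog, Csf1r, Slc17a7, Gad2 and Flt1, which mark other cell types. This gave 1676 nuclei out of 118205 within the limits and 155084 barcodes in all. The 16 libraries came from male mice, 4 in each of 4 groups. Wild-type (WT) C57BL/6 mice, aged 2 months and 23 days, received vehicle or DMXAA, an agonist of mouse STING. Ifnar1-/- mice (KO), aged 3 months and 3 days and lacking a subunit of the type I interferon receptor, received the same treatments. Genotype therefore coincided with age, and effects of genotype and age cannot be told apart. The labels list the 16 libraries as separate samples, so the p-values below measure the spread between these samples.

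The leptomeninges are the inner membranes around the brain, made of the pia and the arachnoid. Their fibroblasts lay down the collagen and laminin of the brain surface, carry solutes between cerebrospinal fluid and tissue, and secrete retinoic acid and growth factors. Fibroblasts also follow larger vessels into the brain. When STING is activated, cells make type I interferon, which acts through a receptor of the subunits IFNAR1 and IFNAR2. The receptor activates transcription factors that bind interferon-stimulated response elements and switch on interferon-stimulated genes (ISGs), many of which code for antiviral proteins.

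The core of this element, taken as GAAA followed by any 2 bases and GAAA again, on either strand, was searched in RefSeq promoter windows of GRCm38.p6, which run from 250 bases before to 50 bases after a gene's start. The core was present in 3.44% of all 32851 windows and in 3.69% of the 5479 genes tested in fibroblasts that had a window. Of 26 ISGs tested with a window, 11 held it, or 42.3%. The holders were Stat2, Ifit1, Ifit3, Ifih1, Ddx58, Ddx60, Parp11, Trim30a, Trim30d, Irgm2 and Eif2ak2. A match is a description of the letters and not a binding site. The windows below are shown for 4 holders, read 5′ to 3′ along each gene, with the core in capitals. Ifit1, Ifit3 and Ddx60 held 2 matches each and Trim30a 1. Oasl2 and Rnf213, on which the results also turn, held 0 matches in their windows, which says only that these letters are not there.
Ifit1 (chr19:34640639-34640938, plus strand): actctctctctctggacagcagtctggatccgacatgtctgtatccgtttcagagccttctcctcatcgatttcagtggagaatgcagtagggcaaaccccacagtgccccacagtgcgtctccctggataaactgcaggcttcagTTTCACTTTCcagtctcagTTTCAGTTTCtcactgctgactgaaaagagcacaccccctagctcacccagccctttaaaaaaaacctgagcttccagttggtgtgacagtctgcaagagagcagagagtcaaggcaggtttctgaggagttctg
Ifit3 (chr19:34583279-34583578, plus strand): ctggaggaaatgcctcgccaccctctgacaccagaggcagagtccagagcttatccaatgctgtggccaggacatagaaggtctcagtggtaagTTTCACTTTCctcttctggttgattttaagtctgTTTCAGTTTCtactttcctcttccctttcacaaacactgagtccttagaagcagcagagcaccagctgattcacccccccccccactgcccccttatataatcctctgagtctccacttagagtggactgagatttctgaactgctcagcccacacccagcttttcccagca
Ddx60 (chr8:61927837-61928136, plus strand): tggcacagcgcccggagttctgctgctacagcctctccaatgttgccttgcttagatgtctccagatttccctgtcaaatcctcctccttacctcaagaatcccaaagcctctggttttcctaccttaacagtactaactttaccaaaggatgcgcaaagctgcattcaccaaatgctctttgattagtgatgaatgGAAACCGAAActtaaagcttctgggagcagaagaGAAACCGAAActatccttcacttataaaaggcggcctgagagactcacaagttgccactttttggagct
Trim30a (chr7:104465144-104465443, minus strand): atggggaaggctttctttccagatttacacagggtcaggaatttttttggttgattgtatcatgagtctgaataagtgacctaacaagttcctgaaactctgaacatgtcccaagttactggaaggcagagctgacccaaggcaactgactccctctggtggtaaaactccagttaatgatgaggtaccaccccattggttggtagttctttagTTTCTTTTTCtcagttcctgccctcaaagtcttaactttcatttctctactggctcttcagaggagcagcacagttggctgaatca

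The selected nuclei carried the RNA of leptomeningeal fibroblasts beyond the genes of the rule. All 25 other fibroblast markers lay more than 5-fold above the level in all other nuclei, in CPM, a gene's UMIs scaled to a common total per library. The nuclei were selected on the genes of the rule, whose values are therefore a description. Slc6a20a, a proline carrier, was detected in 91.1% of the nuclei, Ranbp3l in 90.6%, Col1a2 in 74.9%, Dcn, which codes for decorin, in 60.6%, Col3a1 in 29.95% and Slc47a1, an organic cation exporter, in 7.16%. Among genes outside the rule, Slc6a13, a carrier of GABA and taurine, stood at 571 CPM in fibroblasts and 2.02 CPM in other nuclei. Lama1, a laminin chain of the pial basement membrane, stood at 902 against 4.35 CPM. Aldh1a2, which makes retinoic acid, stood at 329 against 1.11 CPM. The transcription factors Tbx18, at 218 CPM, and Foxd1, at 258 CPM, the organic anion carriers Slc22a8 and Slc22a6, the cystine carrier Slc7a11 and the growth factor Bmp6 were also among the leading genes. The cells on which the rule acted set these differences, so none was tested.

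The markers of pial and perivascular fibroblasts overlap, and the rule does not separate the layers. Most nuclei lay close to its threshold. There were 926 nuclei with exactly 3 rule markers, 594 with 4, 152 with 5 and 4 with all 6. Just outside the rule lay 1269 nuclei with 2 markers. Slc6a13 was detected in 26.9% of these, against 62.7% of those with 3 markers. Lama2 was detected in 67.5% against 82.2%, and Col1a1 in 15.1% against 23.3%. Cped1 was detected in 71.2% of the nuclei with 2 markers, a smaller share than with 3. Bnc2 went the other way, at 40.8% and 1370 CPM against 37.5% and 977 CPM. The border was therefore not equally sharp for these genes, and fibroblasts among the nuclei outside it were not counted. A further 79 nuclei had 3 or more markers and were left out for holding 2 or more of the exclusion genes. The endothelial gene Flt1 was the exclusion gene found most often, in 14.5% of the members, followed by the neuronal Slc17a7 in 8.29%, and Mog, Csf1r and Gad2 were each found in at most 2.09%.

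Libraries held 47 to 155 fibroblast nuclei and 139959 to 650395 of their UMIs, 5870195 in total. The median nucleus had 2478 to 4035.5 UMIs by library, against 4184 to 5476.5 in other nuclei. No barcode occurred among the fibroblast nuclei of more than 1 library, whereas 3033 of 152013 distinct barcodes of the whole series did. A doublet caller marked 107 members, 2.58 to 12.8% by library, which were kept. RNA of other cell types was present. Summed microglia markers stood at 32.3 to 147 CPM by library and border macrophage markers at 0 to 93.8 CPM. Endothelial markers stood at 50.003 to 158 CPM and choroid plexus markers at 275 to 1138 CPM. In other nuclei these lists stood at 211, 25.03, 54.3 and 720 CPM, in that order. The microglia list holds the exclusion gene Csf1r and the endothelial list Flt1, which the rule limited in members and not in other nuclei. Likewise, the neuron list used below holds Slc17a7 and Gad2, and the oligodendrocyte list Mog. The sums of these lists in members are therefore partly set by the rule. Mural cell markers stood at 404 to 977 CPM by library, against 52.2 CPM in other nuclei, with 6 of 8 genes higher in fibroblasts. Vtn, a gene of the mural list, averaged 452 CPM in fibroblasts and 5.93 CPM in other nuclei, and was detected in 47.9% of the fibroblast nuclei. The mural sum therefore does not show mural cell RNA at this level. The part of these lists in the results was not tested. The targeted gene Ifnar1 was still read in KO fibroblasts. It stood at 62.5, 40.8, 34.2 and 35.6 CPM in WT vehicle replicates 1 to 4, at 80.9, 68.3, 56.1 and 69.2 in WT DMXAA, at 26.1, 34.4, 27.9 and 38.7 in KO vehicle and at 29.1, 16.9, 27.4 and 41.8 in KO DMXAA. KO vehicle and WT vehicle overlapped, with a log2 difference of -0.44 ± 0.29 (SE, edgeR adjusted p = 0.38), so the gene's counts do not separate the genotypes under vehicle. With DMXAA every WT library lay above every KO library. The reads come from 3′ ends, and whether these lie outside the deleted part was not tested.

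The share of fibroblasts among nuclei within the limits was 1.20% ± 0.21 (SD, n = 4) in WT mice given vehicle and 1.07% ± 0.42 in those given DMXAA. In KO they made up 1.86% ± 0.31 with vehicle and 1.72% ± 0.54 with DMXAA. DMXAA and vehicle did not separate in either genotype (two-sided exact permutation test over 4 against 4 libraries, p = 0.657 in both). KO vehicle libraries had the higher share in all comparisons with WT vehicle libraries, at an exact permutation p of 0.0286, the smallest value 70 arrangements can give, and 0.0857 after adjustment over 3 comparisons. Without the clusters of mixed identity described next, the exact p was 0.0571. It was also 0.0571 with up to 6000 genes and with at least 4 rule markers. With at least 4 markers the difference was 0.374 percentage points, against 0.664 in the main setting. The median fibroblast nucleus had 3213.5 to 4035.5 UMIs in KO vehicle libraries and 2478 to 2787 in WT vehicle libraries, without overlap. In other nuclei these medians overlapped, at 4184 to 5476.5 and 4460 to 4822 UMIs. Detection of the rule's genes depends on depth, and the part of depth in the shares was not tested. A value that misses the threshold does not show that the shares were alike.

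The nuclei fell into 11 clusters. Cluster 1 (329 nuclei) was led by Gm30613, Abca8a and Sema6a, and cluster 2 (284) by 6530403H02Rik, the extracellular matrix gene Coch and the Wnt regulators Notum and Lef1. Cluster 3 (217) was led by Eln, which codes for elastin, with Ebf2 and Spp1 (osteopontin), and cluster 4 (211) by Gm21847, with the prostaglandin synthase gene Ptgds at 11004 CPM, below its 13287 CPM in cluster 5. Cluster 5 (175) was led by Rspo2, a Wnt agonist, with Nnat and the chloride channel Cftr, and cluster 7 (133) by Cyp26b1, which degrades retinoic acid. Cluster 8 (115) had Adamtsl3 at 1739 CPM, Slc47a1 at 1508 CPM and Slc4a10, a bicarbonate carrier, at 4726 CPM. Slc6a20a was detected in 17.4% of its nuclei, and Slc6a13 stood at 1.93 CPM, against 838 CPM in cluster 4. Of the 120 nuclei with Slc47a1, 80.0% lay in cluster 8. Clusters 1, 2, 4 and 8 varied in share between libraries. Cluster 1 held 25.7 to 41.3% of the nuclei of KO vehicle libraries and 0 to 9.90% of those of WT vehicle libraries, and cluster 4 held 7.79 to 28.3% in WT vehicle and 0 to 1.59% in KO vehicle. Cluster 2 held 23.01 to 42.9% in WT vehicle and 8.33 to 17.5% in KO vehicle. With DMXAA the genotypes overlapped in cluster 2, at 0 to 25.5% in WT and 7.74 to 21.5% in KO, and in cluster 4, at 0 to 49.6% in WT and 0 to 6.45% in KO, whereas cluster 1 held 1.98 to 4.07% in WT and 20.4 to 39.4% in KO. The overlap in cluster 4 came from WT DMXAA replicate 3, at 0%. The other WT DMXAA libraries held 45.5, 49.6 and 17.02% there, above every KO DMXAA library. Cluster 8 held 6.49 to 8.91% in WT vehicle and 9.76 to 17.02% in WT DMXAA, without overlap. Genes that differ between the groups also form these clusters, so their sizes are a description and were not tested.

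Clusters 6, 9, 10 and 11 carried RNA of other cell types. Cluster 6 (142 nuclei) had Nrxn3 at 3923 CPM and Cntnap2 at 2681 CPM, both neuronal adhesion genes. Cluster 9 (31) had the astrocyte glutamate carrier Slc1a2 at 5935 CPM, the 7 oligodendrocyte markers summed to 7625 CPM in cluster 10 (23), and the 10 neuron markers summed to 10488 CPM in cluster 11 (16). Called doublets were 26.8%, 45.2%, 78.3% and 93.8% of these clusters, and at most 11.3% of any other. WT DMXAA replicate 3 stood apart. Of its 78 nuclei, 59 lay in the 4 mixed clusters, or 75.6%, against 2.13 to 27.8% in the other 15 libraries. Its summed neuron markers were 4764 CPM, against 1012 to 3084 CPM, and its 25 fibroblast markers 12398 CPM, below the 13298 to 25086 CPM of the others. Its Malat1, an abundant nuclear RNA, stood at 58552 CPM in fibroblasts, against 95626 to 142422 CPM in the other WT libraries and 41490 to 68326 CPM in KO libraries. In its other nuclei Malat1 stood at 23490 CPM, against 52981 to 90727 CPM in the other WT libraries. The part of these values in its results was not tested. Results of DMXAA in WT are therefore given with and without this library. Removing the 212 nuclei of these clusters left it 19 nuclei, under the minimum of 20 for a sum, so that analysis had 15 libraries.

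**Figure D1:**
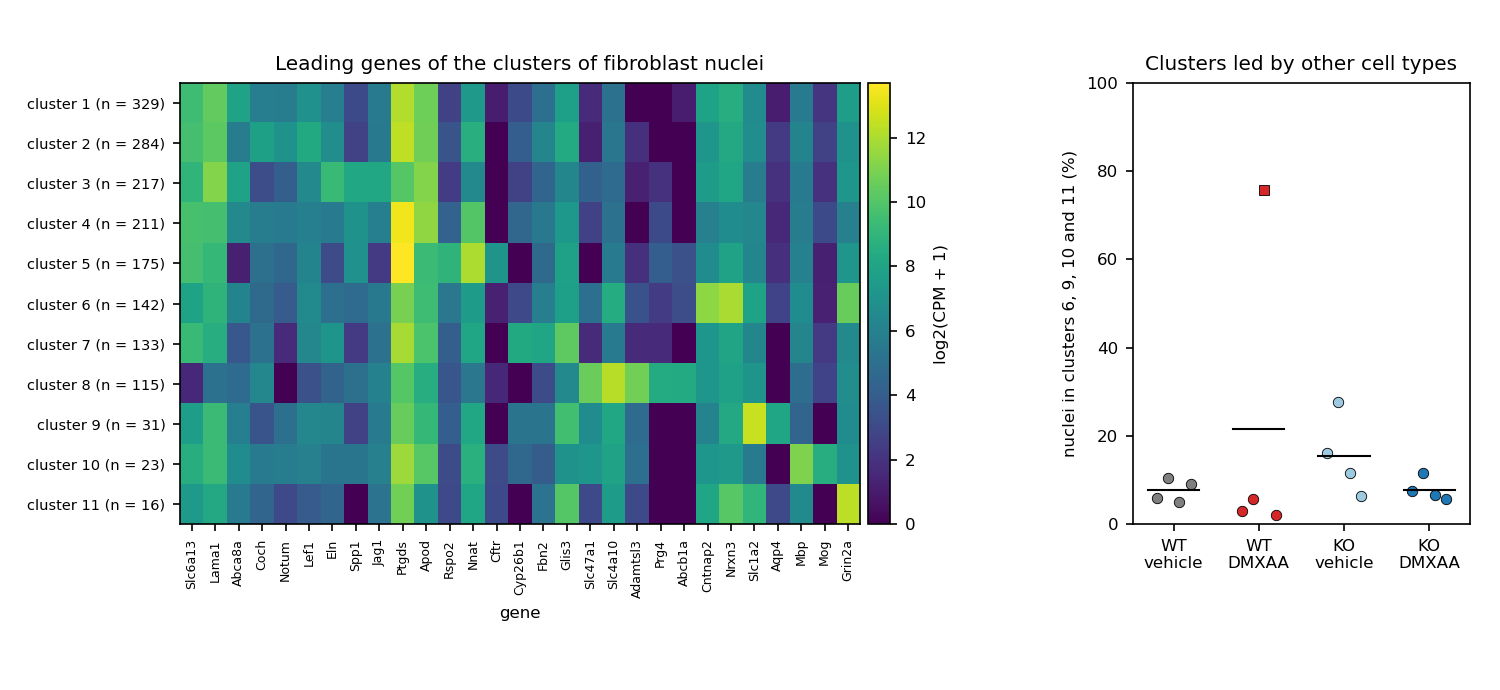
Left, level of leading genes in the 11 clusters of fibroblast nuclei (log2 of CPM + 1, color), with cluster 8 set apart by Slc47a1, Slc4a10 and Adamtsl3. Right, percent of each library's fibroblast nuclei in clusters 6, 9, 10 and 11 by group (points, libraries; bars, means; square, WT DMXAA replicate 3), where the square lies at 75.6% and every other library at or below 27.8%.

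The first question was whether fibroblasts took part in the interferon response to DMXAA. The UMIs of 94 ISGs together stood at 1506, 1575, 2048 and 1946 CPM in WT vehicle replicates 1 to 4, and at 6271, 3353, 2174 and 2837 CPM in WT DMXAA replicates 1 to 4. Every WT DMXAA library lay above every WT vehicle library, replicate 1 the most and, with all nuclei, replicate 3 the least. Without the nuclei of the mixed clusters the WT DMXAA sums were 6187, 3547, 3482 and 2884 CPM, so that replicate 3, on 19 nuclei, was no longer the lowest, and WT vehicle stood at 1587 to 2309 CPM. In KO the sum was 892 to 1042 CPM with vehicle and 922 to 1035 CPM with DMXAA, and all KO libraries lay below all WT libraries. The sum is a score over a list chosen with earlier results known, and it was not tested. In other nuclei of the same libraries it was 376 to 442 CPM in WT vehicle and 587 to 1466 CPM in WT DMXAA. In other nuclei replicate 3 was the lowest of the WT DMXAA libraries.

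**Figure D2:**
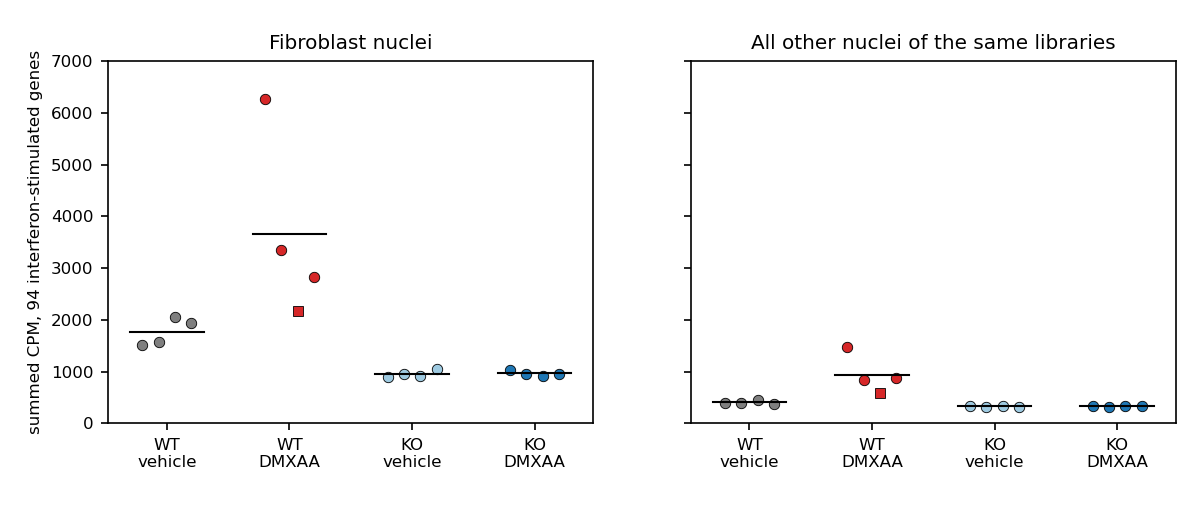
Summed CPM of 94 ISGs in fibroblast nuclei (left) and in all other nuclei (right) of each library by group (points, libraries; bars, means; square, WT DMXAA replicate 3). In fibroblasts WT DMXAA libraries span 2174 to 6271 CPM and WT vehicle libraries 1506 to 2048 CPM, while KO libraries of both treatments stay at or below 1042 CPM.

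ISG UMIs were found across many nuclei, and the part of RNA from outside the nuclei was not estimated. After each nucleus was thinned to 800 UMIs, leaving out 6 shallower nuclei, 11.9 to 22.9% of the nuclei of WT vehicle libraries and 25.5 to 74.3% of those of WT DMXAA libraries held at least 3 ISG UMIs. In KO libraries the share was 2.22 to 7.50%. Unthinned, it was 61.9 to 73.2% in WT vehicle, 83.0 to 98.02% in WT DMXAA and 50 to 68.3% in KO libraries. Within cluster 8, which had at least 5 nuclei in every WT library, the summed ISGs were 1269 to 2310 CPM in WT vehicle and 2750 to 6142 CPM in WT DMXAA. Within cluster 5 they were 1594 to 2395 CPM in WT vehicle and 1813 to 8290 CPM in WT DMXAA, which overlapped.

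ISGs lay higher with DMXAA in WT, but whether single ISGs passed the test depended on the tool and filter. In the edgeR quasi-likelihood fit over 7020 genes, called at a Benjamini-Hochberg adjusted p under 0.05, DMXAA in WT gave 1 call, or 0.0142% of genes, whereas 433 genes (6.17%) had an unadjusted p under 0.05. Of the 33 ISGs with enough counts to test, 0 were called, 18 had an unadjusted p under 0.05 and all of those lay higher with DMXAA. In 6 of the 33 every WT DMXAA library lay above every WT vehicle library, beside 1.58% of all genes. The median ISG differed by 0.90 on the log2 scale, against 0.01 over all genes tested. The filter on low counts keeps genes high in any group, so these 33 are not all ISGs. Some can enter through their level in 1 group alone, which can tilt counts and medians over the 33, here and below. On the same libraries DESeq2 made 5 calls, 4 of them higher and among them Ddx60 and Rnf213. Without the filter on low counts edgeR made 52 calls, 40 of them higher, among them Ddx60, Rnf213, Oasl2 and Gm4951, with an adjusted p of 4.6e-06 for Ddx60. That setting also made calls for DMXAA in KO and for the difference between genotypes, so making calls is not particular to WT there.

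The RNA helicase gene Ddx60 stood at 27.8, 56.5, 30.4 and 57.9 CPM in WT vehicle replicates 1 to 4 and at 239, 154, 142 and 61.5 CPM in WT DMXAA replicates 1 to 4. It stood at 6.52 to 27.9 CPM in KO vehicle and 17.1 to 30.9 CPM in KO DMXAA. The WT groups did not overlap, although WT DMXAA replicate 4 lay just above the highest vehicle library. The log2 difference was 1.84 ± 0.36 (SE), with an edgeR adjusted p of 0.092.

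Rnf213, an interferon-induced ubiquitin ligase gene, stood at 72.9, 62.7, 79.8 and 129 CPM in WT vehicle and at 368, 205, 198 and 131 CPM in WT DMXAA, again without overlap. KO libraries stood at 53.7 to 94.5 CPM with either treatment. Its log2 difference in WT was 1.43 ± 0.28 (edgeR adjusted p = 0.092), and in KO it was 0.05.

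Trim30a, which codes for a TRIM protein of the innate immune system, stood at 10.4, 9.41, 22.8 and 22.3 CPM in WT vehicle and at 121, 56.4, 52.8 and 46.1 CPM in WT DMXAA. The WT groups lay apart by a log2 difference of 2.13 ± 0.53 (edgeR adjusted p = 0.44). It was read in 1 of 4 KO vehicle libraries, at 6.52 CPM, and at up to 8.47 CPM in KO DMXAA. Its near copy Trim30d can share reads with it.

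Oasl2, an oligoadenylate synthetase-like antiviral gene, stood at 59.0, 50.2, 91.2 and 71.3 CPM in WT vehicle and at 457, 119, 79.1 and 154 CPM in WT DMXAA. Replicate 3 fell within the vehicle range and the groups overlapped (log2 difference 1.57 ± 0.44, edgeR adjusted p = 0.52). KO libraries stood between 3.28 and 20.5 CPM.

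Ifit1, an antiviral gene that binds foreign RNA, stood at 3.47, 31.4, 34.2 and 31.2 CPM in WT vehicle and at 137, 128, 16.5 and 38.4 CPM in WT DMXAA, with 0 to 5.46 CPM in KO. Ifit3, of the same family, stood at 26.7 to 47.1 CPM in WT vehicle and at 166, 107, 16.5 and 30.7 CPM in WT DMXAA. For Ifit1 only replicate 3 of the WT DMXAA libraries lay within the vehicle range, and for Ifit3 replicate 4 lay within it and replicate 3 under it. Irf7, a transcription factor of the interferon loop, was too low to test and stood at 3.14 to 11.4 CPM in WT vehicle and 44.5, 29.7, 13.2 and 0 CPM in WT DMXAA. Ifit2 and Irf1, by contrast, lay at 32.8 and 31.9 CPM on average in WT vehicle and at 32.2 and 26.0 CPM in WT DMXAA.

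**Figure D3:**
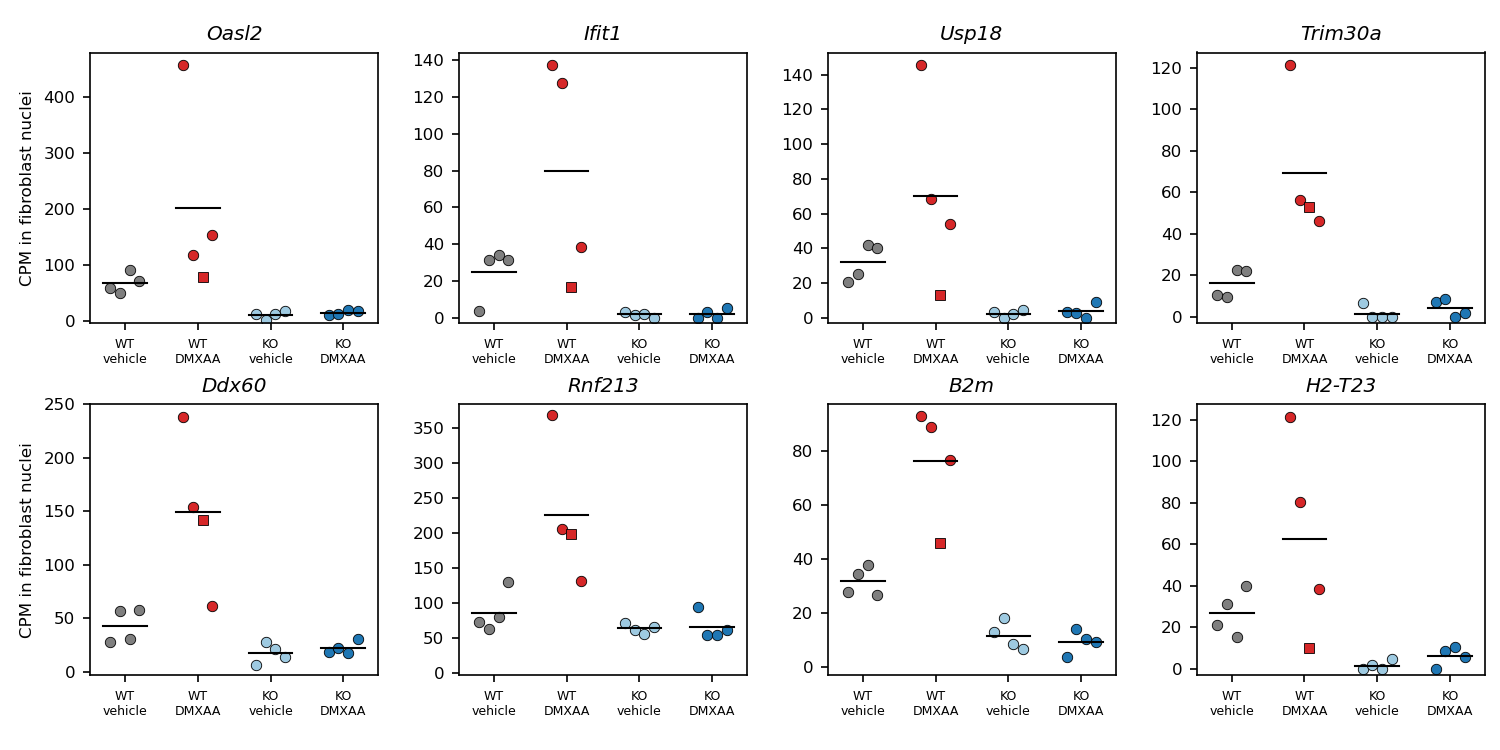
CPM of single genes in the fibroblast nuclei of each library by group (points, libraries; bars, means; square, WT DMXAA replicate 3). For Ddx60 the 4 WT DMXAA libraries span 61.5 to 239 CPM above WT vehicle at 27.8 to 57.9 CPM, whereas for Oasl2 replicate 3, at 79.1 CPM, lies inside the vehicle range.

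Class I antigen presentation genes show peptides at the cell surface and respond to interferon in most cells. Of 7 tested in WT, 0 were called and 3 lay higher at an unadjusted p under 0.05, with a median log2 difference of 0.83, beside 3.6% of all genes higher at that level and a median of 0.01. Without WT DMXAA replicate 3, 1 of the 7 was called, B2m, beside 0.406% of all genes called higher, and the median was 1.11. Without the mixed clusters 0 of 7 were called by edgeR, 4 lay higher at an unadjusted p under 0.05 and the median was 0.93. B2m, the shared light chain, stood at 27.8, 34.5, 38.0 and 26.7 CPM in WT vehicle and at 92.98, 89.1, 46.2 and 76.9 CPM in WT DMXAA, without overlap (log2 difference 1.24 ± 0.33, edgeR adjusted p = 0.50). H2-K1, a heavy chain gene with close copies, stood at 6.95 to 76.0 CPM in WT vehicle and 46.2 to 174 CPM in WT DMXAA and overlapped.

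The one gene called was Tbx3os1, a noncoding RNA gene next to Tbx3, which fell. It stood at 52.1, 62.7, 41.8 and 71.3 CPM in WT vehicle and at 4.04, 8.91, 13.2 and 7.69 CPM in WT DMXAA. The groups lay far apart, with a log2 difference of -2.64 ± 0.42 (edgeR adjusted p = 0.0335). In KO it stood at 18.03 to 40.7 CPM with vehicle and 22.6 to 43.6 CPM with DMXAA. Tbx3os1 is also a leading gene of cluster 2, which held 23.01 to 42.9% of WT vehicle nuclei and 0 to 25.5% of WT DMXAA nuclei. Its part in the result was not tested. The call was kept in 14 of 25 alternative settings, with adjusted p up to 0.498. Among genes that were not called, Ctdspl, a small phosphatase gene, stood at 160 to 191 CPM in WT vehicle and 277 to 363 CPM in WT DMXAA (edgeR adjusted p = 0.058). Efcc1 stood at 47.1 to 83.6 CPM in WT vehicle and 7.69 to 29.7 CPM in WT DMXAA (edgeR adjusted p = 0.092).

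With all libraries, the lists of structural and barrier genes gave no edgeR call in WT. Of 23 collagen genes tested, 3 lay higher and 1 lower at an unadjusted p under 0.05, and the median log2 difference was 0.19. Of 41 matrix glycoprotein and proteoglycan genes, 4 lay higher and 1 lower, with a median of 0.14, and of 24 crosslinking and remodelling genes 1 lay higher. These counts stand beside 3.6% higher and 2.56% lower over all genes. Col1a1 lay at 115 ± 25.1 CPM (SD, n = 4) in WT vehicle and 131 ± 16.96 CPM in WT DMXAA. Gpc6, a glypican, stood at 1015 to 1296 CPM in WT vehicle and 1366 to 2152 CPM in WT DMXAA, with an edgeR adjusted p of 0.57. Of 32 solute carriers 2 lay higher and 1 lower, of 20 barrier and adhesion genes 2 higher, and of 33 genes of growth factor and retinoid signalling 4 higher and 1 lower. Genes of the rule were not left out where a list holds them, and the nuclei were selected on their detection. Their part in these counts and medians was not tested.

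Without WT DMXAA replicate 3, the lists gave 2 calls outside the genes of the rule, beside 1.49% of all genes. The surface peptidase gene Dpp4 was called higher among 21 barrier and adhesion genes, and Slc35f1 lower among 32 solute carriers. Outside the lists, Prg4, Spp1 and Apod, each among the leading genes of a cluster, were called higher both without this library and without the mixed clusters. Prg4, which codes for the lubricant lubricin, stood at 38.2, 6.27, 38.0 and 8.91 CPM in WT vehicle and at 158, 140, 49.5 and 161 CPM in WT DMXAA, so that the groups did not overlap. It stood at 345 CPM in cluster 8 and at most 16.1 CPM in any other cluster. Cluster 8 held 6.49 to 8.91% of the nuclei of WT vehicle libraries and 9.76 to 17.02% of those of WT DMXAA libraries, and the part of this share in the result was not tested. Spp1 stood at 34.7 to 104 CPM in WT vehicle and at 465, 255, 42.9 and 108 CPM in WT DMXAA, with replicate 3 inside the vehicle range. Without that library the log2 differences were 2.69 for Prg4, 2.08 for Spp1 and 1.02 for Apod (edgeR adjusted p = 0.0159, 0.0183 and 0.0070). Apod stood at 2743 CPM in cluster 4 and at 1184 CPM in the other fibroblasts. Cluster 4 held 45.5, 49.6 and 17.02% of the nuclei of the remaining WT DMXAA libraries and 7.79 to 28.3% of those of WT vehicle libraries, and its part in the result was not tested.

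Of 13 chemokine, cytokine and complement genes, 0 lay higher and 1 lower at an unadjusted p under 0.05, and 0 were called by edgeR. This and the next counts stand beside the same 3.6% higher and 2.56% lower over all genes. Cxcl12, a chemokine that fibroblasts make at rest, lay at 125 ± 22.9 CPM (SD, n = 4) in WT vehicle and 149 ± 61.3 CPM in WT DMXAA. Of 15 clock genes, 3 lay lower, and Dbp, an output gene of the clock, stood at 87.4 to 98.01 CPM in WT vehicle and 23.1 to 62.3 CPM in WT DMXAA (log2 difference -1.09 ± 0.29, edgeR adjusted p = 0.50). The interferon receptor and STING signalling list had 1 of 6 higher, Ifnar1, and Tmem173, the gene of STING, stood at 0 in all 4 WT DMXAA libraries and at up to 6.83 CPM elsewhere. Tmem173 lay near the floor, as 3 UMIs over the WT DMXAA group would make 2.95 CPM, so its 0 does not show a loss.

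Without WT DMXAA replicate 3, the same fit called 110 of 7387 genes in WT, or 1.49%, with 30 higher (0.406%) and 80 lower (1.08%). The fit dropped this library. Of 34 ISGs tested, 12 were called, or 35.3%, and all 12 were higher. Among them were Rnf213, Ddx60, Oasl2, Ifi27, Ifit1, Sp100, Oas2, Gm4951, Trim30a, Ifit3 and Eif2ak2. The log2 difference of Oasl2 was then 1.85 (edgeR adjusted p = 0.0124), that of Ddx60 1.88 (adjusted p = 0.0106) and that of B2m 1.43 (adjusted p = 0.0241). Of the 7 neuron markers tested, 2 were called lower, Syt1 and Rbfox3, or 28.6%. The lower genes also held the glutamate receptor genes Grik2 and Grm5 and the adhesion gene Nrxn3. The summed neuron markers were 1012 to 1867 CPM in the remaining WT DMXAA libraries and 1878 to 3084 CPM in WT vehicle libraries, without overlap. The 25 fibroblast markers summed to 21814 to 25086 CPM in these WT DMXAA libraries and to 17301 to 20448 CPM in WT vehicle libraries, also without overlap. The part of either in the lower and higher genes was not tested.

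Leaving out the nuclei of the 4 mixed clusters instead, which also dropped WT DMXAA replicate 3, gave 34 calls of 6466 genes in WT, or 0.526%, with 19 higher (0.294%) and 15 lower (0.232%). Of 32 ISGs, 8 were called higher, or 25%, among them Rnf213, Ddx60, Oasl2, Gm4951, Ifit1, Sp100 and Ifit3. Of the 34 genes, 30, or 88.2%, were also among the 110. Removing these clusters was an alternative chosen after seeing the data. In the nuclei kept, neuron markers were 1039 to 1053 CPM in WT DMXAA and 1446 to 1707 CPM in WT vehicle. With every library but this one left out in turn, the count in WT was 0 to 4.

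In KO, DMXAA gave 0 calls by edgeR, or 0% of 7020 genes (327, or 4.66%, at an unadjusted p under 0.05), and also 0 by DESeq2 and limma. Without the filter on low counts edgeR did make calls in KO, counted in the closing section. Of 33 ISGs, 0 had an unadjusted p under 0.05 and the median log2 difference was 0.06. The difference between the genotypes in the DMXAA effect was then tested directly and gave 0 edgeR calls, or 0%. There were 425 genes (6.05%) under an unadjusted p of 0.05, and the lowest adjusted p was 0.377. For Rnf213 this difference was 1.38 on the log2 scale and for Ddx60 1.52, both with an edgeR adjusted p of 0.79. Without WT DMXAA replicate 3 it gave 33 calls, or 0.447%, of which 2 were higher (0.0271%) and 31 lower (0.42%), and Rnf213 had an edgeR adjusted p of 0.117. Without the mixed clusters it gave 1 call, Tbx3os1, or 0.0155%. Of the 33 ISGs with all libraries, 7 had a larger effect in WT at an unadjusted p under 0.05, beside 3.09% of all genes, and 0 a smaller one. Of the 33, 30 lay above 0, and the median difference was 0.62, against 0.01 over all genes. The filter on low counts can keep an ISG for its level in WT DMXAA alone. This can tilt these counts and the median, and its part was not tested. No single ISG was shown to differ between the genotypes in this edgeR fit.

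The DMXAA effect in fibroblasts was next compared with that in all other nuclei of the same libraries, in a fit with a term for each library. In other nuclei alone, 120 of 20300 genes were called in WT, or 0.591%, among them 24 of the 33 ISGs, all higher. The median ISG differed by 1.58 on the log2 scale in other nuclei and by 0.90 in fibroblasts. At an unadjusted p under 0.05, 5.7% of all genes differed between the classes. Of the 33 ISGs, 27 had the smaller log2 difference in fibroblasts, 16 at an unadjusted p under 0.05, and 0 had a larger one at that level. The median of the gene-by-gene differences was -0.83, against -0.02 over all genes. The 33 were those of the 94 ISGs with enough counts in fibroblasts to test. ISGs low in fibroblasts, such as Irf7, were left out, which can tilt these counts and medians. The part of that choice was not tested. Over all genes 2 of 7020, or 0.0285%, were called, and both were ISGs.

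These 2 genes were Oasl2 and Usp18, the gene of a protease that removes ISG15 and dampens the receptor. Oasl2 averaged 67.9 CPM in WT vehicle fibroblasts and 202 CPM in WT DMXAA fibroblasts, whereas other nuclei averaged 1.48 and 22.1 CPM. The effect in fibroblasts was smaller by 2.30 ± 0.36 on the log2 scale (edgeR adjusted p = 0.0161). Usp18 averaged 32.0 and 70.2 CPM in fibroblasts and 0.625 and 9.81 CPM in other nuclei, a difference of -2.81 ± 0.50 (edgeR adjusted p = 0.0470). For both, the level in fibroblasts at rest already lay above the level that other nuclei reached with DMXAA. For Trim30a, Rnf213 and B2m the differences between the classes were -0.02 ± 0.49, -0.29 ± 0.25 and 0.01 ± 0.38. Other nuclei pool neurons and glia in unlike shares, so this is a comparison with the rest of the tissue and with no single cell type.

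**Figure D4:**
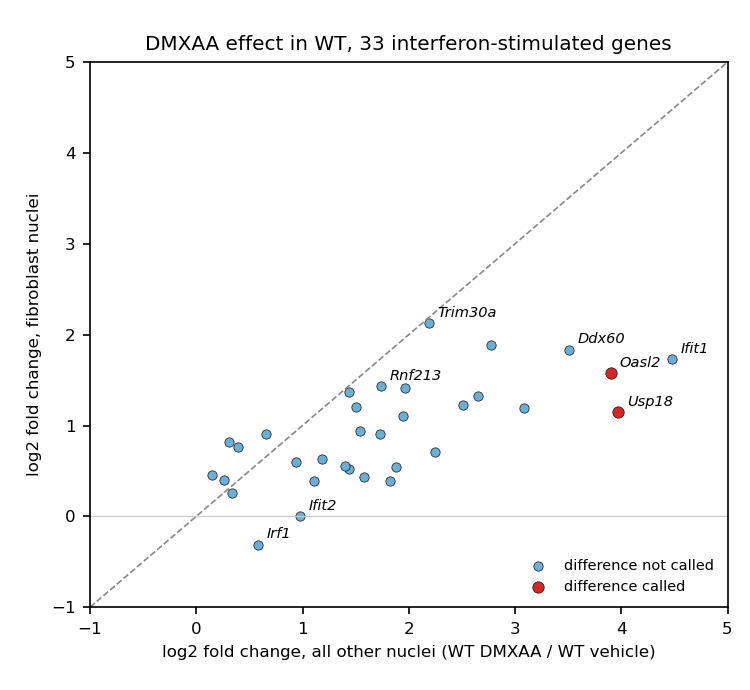
Log2 fold change with DMXAA in WT of 33 ISGs, in all other nuclei (x axis) and in fibroblast nuclei (y axis), with the line of equal change and with the genes called for the difference marked. Of the 33 genes, 27 lie below the line, among them Oasl2 and Usp18.

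The call for the class difference rested on few libraries. Leaving out 1 library gave 0 to 45 calls. There were 0 without WT vehicle replicate 3, WT vehicle replicate 4 or WT DMXAA replicate 1, and 45 without WT DMXAA replicate 3, of which 7 were higher and 38 lower and 4 were the ISGs Oasl2, Usp18, Ifit1 and Ddx60. By limma 0 genes were called. Over these settings the difference of Oasl2 ran from -2.58 to -2.08 and that of Usp18 from -3.12 to -2.47. The adjusted p of Oasl2 stayed under 0.05 in 13 of the 16 settings that left out a library, and that of Usp18 in 5 of 16, rising to 0.29. In KO the class difference gave 0 edgeR calls, and 311 genes (4.43%) had an unadjusted p under 0.05.

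Endothelial nuclei, which border on the perivascular fibroblasts, numbered 450 and were summed in the 14 libraries with at least 20. Their summed ISGs were 3150 to 5354 CPM in WT vehicle and 6178 to 9011 CPM in WT DMXAA, above the fibroblasts of the same libraries. The DMXAA effect in WT differed between both types in 0 of 5604 genes (edgeR), or 0%, while 262 (4.68%) had an unadjusted p under 0.05. The median difference over 27 ISGs was -0.25 on the log2 scale, with 15 below 0. Single genes gave values in both directions, with Oasl2 at 0.39 and Ifit1 at -1.79 (edgeR adjusted p = 0.99 and 0.96), and with 3 WT libraries per treatment this does not show that the 2 cell types respond alike.

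The last comparison was between the genotypes at rest. Between KO vehicle and WT vehicle, edgeR called 503 of 7020 genes, or 7.17%, with 197 higher (2.81%) and 306 lower (4.36%) in KO. Dropping WT DMXAA replicate 3 from the fit raised this count to 978, of which 414 were higher (5.6%) and 564 lower (7.64%), and dropping KO vehicle replicate 2 lowered it to 110. Genotype and age cannot be told apart here. Of the 33 ISGs, 5 were called and all were lower in KO, and 13 lay below WT without overlap, against 9.63% of all genes. Other RNA moved with this comparison. The 7 microglia markers summed to 46.6 to 147 CPM in WT vehicle and 32.3 to 59.96 CPM in KO vehicle. The 25 fibroblast markers summed to 17301 to 20448 CPM in WT vehicle and 13298 to 16777 CPM in KO vehicle, without overlap. Clusters 1, 2 and 4 also differed in share between these groups, as given above. Of 61 ribosomal protein genes 28 were called lower, and Malat1 was lower in every KO vehicle library than in every WT vehicle library. The part of these in the ISG values was not tested. The median ISG differed by -0.81 on the log2 scale, against 0.00 over all genes.

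Ifit1 fell from 25.1 ± 14.5 CPM (SD, n = 4) in WT vehicle to 1.76 ± 1.36 CPM in KO vehicle (log2 difference -3.64 ± 0.96 SE, edgeR adjusted p = 0.030), a call made in 15 of 23 alternative settings. Usp18 stood at 20.8, 25.1, 41.8 and 40.1 CPM in WT vehicle and at 3.26, 0, 2.14 and 4.55 CPM in KO vehicle, a log2 difference of -3.62 (edgeR adjusted p = 0.017). Trim30a, Oasl2 and Ifi27 were lower by log2 differences of -3.43, -2.55 and -2.03. The KO vehicle and WT vehicle libraries of these 5 genes did not overlap.

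Of the 7 class I genes tested, 3 were called and lower in KO, beside 4.36% of all genes, and the list's median was -1.34, beside 0.00. The fall was not particular to fibroblasts. The class I list summed to 209 to 342 CPM in WT vehicle and 141 to 173 CPM in KO vehicle fibroblasts. In other nuclei it summed to 51.8 to 63.9 and 27.8 to 33.6 CPM. Ribosomal protein genes were also called lower in KO (28 of 61), and their part in these values was not tested. H2-T23, a nonclassical heavy chain, stood at 20.8, 31.4, 15.2 and 40.1 CPM in WT vehicle and at 0, 1.64, 0 and 4.55 CPM in KO vehicle (log2 difference -3.74, edgeR adjusted p = 0.023). H2-D1 and B2m were lower by log2 differences of -1.88 and -1.39, and B2m was called in 14 of 24 alternative settings. H2-K1 averaged 50.4 CPM in WT vehicle and 18.5 CPM in KO vehicle and was not called. The genes Tap2, Tapbp and Erap1, of peptide loading, had log2 differences of -0.53, -0.19 and 0.31.

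Growth factor and matrix genes did not stand out from the 7.17% of all genes called. Bmp6, a growth factor, stood at 1129 to 1410 CPM in WT vehicle and 1902 to 2570 CPM in KO vehicle and was called higher (log2 difference 0.80, edgeR adjusted p = 0.0087). The laminin chain Lamc1, at 198 to 334 and 407 to 496 CPM, Gpc6, at 1015 to 1296 and 1780 to 2788 CPM, and Cemip, a hyaluronan-binding gene, at 535 to 965 and 835 to 1703 CPM, were also called higher. Of 23 collagens 1 was called higher, of 32 solute carriers 1 higher, of 41 matrix glycoproteins 2 higher and 1 lower, and of 33 growth factor and retinoid genes 2 higher and 1 lower, beside the 2.81% higher and 4.36% lower over all genes. At an unadjusted p under 0.05, 6 matrix glycoproteins lay higher and 6 lower, beside 10.5% higher and 13.6% lower over all genes. Here too, genes of the rule were not left out of the lists, and their part in the counts was not tested. Dbp was lower, by a log2 difference of -0.92 (edgeR adjusted p = 0.041), and was called in 13 of 26 alternative settings.

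Ribosomal protein genes were lower in KO as a group. Of 61 cytosolic ribosomal protein genes tested, 28 were called, all lower, beside 4.36% of all genes, with a median log2 difference of -1.24, beside 0.00, and Rplp1 stood at 98.4 ± 39.5 CPM (SD, n = 4) in WT vehicle and 17.8 ± 7.46 CPM in KO vehicle. The median genomic span of the genes called lower was 8.37 kb and of those called higher 181 kb, against 49.6 kb over all genes tested. Ribosomal protein genes summed to 2938 to 4724 CPM in WT vehicle and 1578 to 2093 CPM in KO vehicle in fibroblasts, and to 2362 to 3824 and 1422 to 1598 CPM in other nuclei. Malat1 stood at 95626 to 117752 and 41490 to 52628 CPM in fibroblasts, and at 52981 to 70608 and 12057 to 19939 CPM in other nuclei. The shift was thus present in both classes of nuclei.

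**Figure D5:**
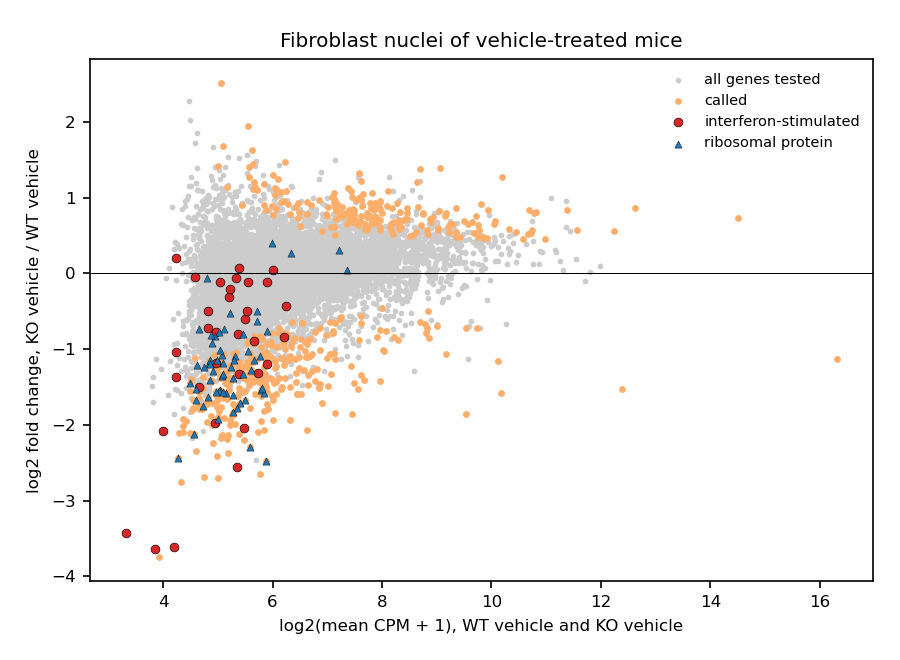
Log2 fold change of KO vehicle over WT vehicle in fibroblast nuclei against mean level (log2 of mean CPM + 1) for 7020 genes (gray), with called genes, 33 ISGs and ribosomal protein genes marked. Of the ISGs 5 are called and lie at or below -2.03, and of 61 ribosomal protein genes 28 are called, all below 0.

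The difference between KO vehicle and WT vehicle, in which genotype and age coincide, was set against that in all other nuclei of the same libraries. This comparison was added after the data were seen. Among the 503 genes called in fibroblasts, 494 had a log2 difference of the same sign in other nuclei. Of the 7020 genes, 5 differed between the classes, or 0.0712%. These were Tbx3os1, Gm26917, the neurexin gene Nrxn2, the matrix gene Hmcn1 and Nxn, and for each the log2 difference of KO to WT was lower in fibroblasts. Hmcn1, which codes for hemicentin, stood at 140 and 75.4 CPM in WT vehicle and KO vehicle fibroblasts and at 6.56 and 11.7 CPM in other nuclei. Of the 33 ISGs, 0 were called for this difference, and 8 had an unadjusted p under 0.05, all lower in fibroblasts. Over all 7020 genes, 864 were lower in fibroblasts and 137 higher at that level, with a median difference of -0.15. The median ISG differed between genotypes by -0.81 in fibroblasts and by -0.20 in other nuclei on the log2 scale, beside medians of 0.00 and 0.17 over all genes. For Trim30a the values were -3.43 and -0.41, with an edgeR adjusted p of 0.12 for the difference.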

How the data were processed

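Single-nucleus RNA-seq of hippocampus (10x 3′ v3.1) was deposited as 1 raw UMI count matrix of 32285 genes per library. The authors aligned reads to mm10 with introns included and made these counts with Cell Ranger, version 3.1.0 per the submitters' processing notes and 6.1.2 per the file headers; the values are not normalized. From these deposited counts, nuclei were selected by the rule given in the report and their UMIs were summed per library (139959 to 650395 UMIs, which limits low genes). The sums were tested with edgeR 4.0.16 (quasi-likelihood, TMM, filterByExpr) in R 4.3.3 over all 4 groups, with calls at an adjusted p below 0.05 where the log2 difference exceeded 0.1 in size. The DMXAA effect was tested within WT and within KO, then between them, and the genotypes were compared under vehicle. Class comparisons had a term per library and at least 20 nuclei per sum. CPM of single genes compared between groups in fibroblasts used TMM-scaled totals of the tested genes. Plain totals were used for sums over lists, for marker and cluster levels, for Malat1 and for all values in other nuclei. Single-gene CPM of fibroblasts and of other nuclei set side by side between groups, as for Oasl2, Usp18 and Hmcn1, thus have unlike totals. Shares were compared by exact permutation. Clusters came from scanpy 1.11.5 (2000 variable genes, 20 components, 15 neighbours, Leiden resolution 0.4).

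The members and gene lists were chosen with earlier results of these data known. For each contrast, the text could name up to 10 called genes per direction, by size, whose libraries did not overlap, filled to 8 per direction by unadjusted p, the 4 tested genes of each list with the lowest p in WT, and a fixed set with Ifnar1, Irf7, B2m and Col1a1. Ifit2, Irf1, Tap2, Tapbp, Erap1, Prg4, Spp1, Apod, Ifit3, genes called only without a library and genes named from the comparisons with other nuclei were chosen after their values were seen. The edgeR test was checked on simulated data. Alternatives were DESeq2 1.42.0, limma-trend (limma 3.58.1), no filter on low counts, stricter and looser rules for nuclei, removal of called doublets or mixed clusters, a fit of both groups alone, and leaving out each library.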

Additional observations from a re-analysis of the deposited data

Results flagged for a closer look

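The share of fibroblast nuclei in clusters led by neuronal, astrocyte or oligodendrocyte genes was 75.6% in WT DMXAA replicate 3, against 2.13 to 5.69% in the other WT DMXAA libraries. Ifit1 stood at 3.47 CPM in WT vehicle replicate 1, against 31.2 to 34.2 CPM in the other WT vehicle libraries. In that library's sum of 306673 UMIs this level rests on very few UMIs. Trim30a stood at 121 CPM in WT DMXAA replicate 1, against 46.1 to 56.4 CPM in the other WT DMXAA libraries. These 3 came from 103 groups of 4 libraries tested for a sample far from the others, and chance alone marks about 1 in 20 groups. The DMXAA effect in WT differed between fibroblasts and all other nuclei for Oasl2, by -2.30 on the log2 scale, and for Usp18, by -2.81, both by the edgeR test of the difference itself.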

How the results depend on the processing

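Nuclei were few (47 to 155 per library), so low genes could not be tested and a missed threshold does not show equal levels. No paired analysis was possible because the replicate numbers follow accession order and tie no samples together. DMXAA in WT gave 5 calls by DESeq2, 3 by limma-trend, 52 without the filter on low counts, 0 with at least 4 markers, with no exclusion gene, with up to 6000 genes or from both groups alone, and 34 without the mixed clusters. In KO it gave 26 without the filter. The difference between genotypes gave 28 without the filter and 1 without called doublets or without the mixed clusters. KO vehicle against WT vehicle gave 912 without the filter, 46 with at least 4 markers, 301 with no exclusion gene, 814 from both groups alone and 968 without the mixed clusters. Set against other nuclei it gave 5, a count of genes whose difference was unlike between the classes and so of another quantity. The class difference in WT gave 0 by limma. The difference in share with DMXAA turned to 0.0507 percentage points in WT and 0.0142 in KO with at least 4 markers, and to 0.0215 in KO without the mixed clusters. Leaving out 1 library gave 0 to 110 calls in WT (110 without WT DMXAA replicate 3), 0 in KO, 0 to 33 for the difference between genotypes, 110 (without KO vehicle replicate 2) to 978 (without WT DMXAA replicate 3) between genotypes at rest, and 0 to 45 for the class difference in WT. Share differences then ran from -0.289 to 0.00643 in WT, from -0.391 to 0.0183 in KO and from 0.545 to 0.799 between genotypes. The cause of these changes was not tested. Over 2225 combinations of settings with the 89 results of named genes whose unadjusted p was under 0.01, 0 turned direction, 80 gained and 113 lost the threshold of the test. Results chosen at so low a p could hardly turn in fits of mostly the same counts. The 0 is therefore no measure of how firm the directions are.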
